A study of Homo sapiens with 10 samples.

Results

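Vimentin and 9 genes of the contractile actin cytoskeleton were followed across 4 lines that descend from PC3, an established line of human prostate cancer. The members are VIM, TAGLN, ACTA2, MYL9, CNN1, CNN3, TPM1, TPM2, CALD1 and ACTN1, and each was taken by its name from the 23170 genes of the gene tables and from the 37557 isoforms of the isoform tables. All 10 had 1 gene entry in every table. The study asked what the transcription factors OVOL1 and OVOL2 do to mesenchymal cancer cells, and RNA-seq was performed on 10 samples for that purpose.

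PC3-Epi (2 samples) is a luciferase-positive PC3 population picked for its epithelial shape. PC3-EMT14 (3 samples) is 1 of several mesenchymal populations isolated after PC3-Epi had been cultured with human macrophages. Lentivirus carrying OVOL1 turned PC3-EMT14 into PC3-EMT14-OVOL1 (3 samples) after selection, and lentivirus carrying OVOL2 turned it into PC3-EMT14-OVOL2 (2 samples). All 4 lines descend from the luciferase-bearing PC3-Epi cells, and each stands for 1 isolated or transduced population. The labels do not name an empty vector in PC3-EMT14, so the added gene and the transduction with its selection cannot be told apart.

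Expression is given as FPKM, the fragments scaled to transcript length and library size, so that levels can be set side by side between genes of different length. The authors' program pooled the samples of a line into 1 FPKM per line and table. There is therefore no value per sample, no SD and no test here, the depth is unknown, and whether a difference exceeds the spread between replicates was not assessed, since pooled values do not show that spread and the p-values deposited with them were not used. A gene is called lower or higher where the pooled FPKM of 2 lines differ by at least 2-fold and the higher line has at least 1 FPKM, and these calls are read beside the percentage of all genes that meet the same rule. The 3 comparisons with PC3-EMT14 share its samples. In bulk samples, fewer cells with a transcript and less of it per cell cannot be told apart.

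The labels were checked first. OVOL1 had 11.3 FPKM in its own line against 0.0238 FPKM in PC3-EMT14, and OVOL2 had 831 FPKM in its own line against 0.370 FPKM. In PC3-Epi, OVOL1 had 4.25 FPKM and OVOL2 had 9.91 FPKM, so the OVOL2 line lay far above the level of the epithelial line. CDH1, the gene of E-cadherin, had 0.981 FPKM in PC3-EMT14 against 16.2 FPKM with OVOL1, 0.971 against 39.2 FPKM with OVOL2 and 1.00 against 50.6 FPKM in PC3-Epi. Of 10 macrophage markers, 9 were below 1 FPKM in every line, and these 9 summed to between 0.187 and 0.379 FPKM. The exception was CD68, a lysosomal protein that is not restricted to macrophages, with 13.2 FPKM in PC3-Epi against 54.1 FPKM in PC3-EMT14.

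Vimentin builds the intermediate filaments that are typical of mesenchymal cells, and its gain is among the most used markers of the epithelial to mesenchymal transition. The other 9 members belong to the actin and myosin machinery that generates force: actin, the myosin light chain that switches the motor on when phosphorylated, the tropomyosins, calponins and caldesmon that lie along the actin filament and gate the motor, and the proteins that bundle or anchor filaments. Several of them are classical markers of smooth muscle and myofibroblasts and are known targets of serum response factor, SRF, which binds a DNA element called the CArG box. They are often listed together with vimentin as mesenchymal genes.

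VIM had the lowest log2 ratio of the members in all 3 comparisons with PC3-EMT14. With OVOL1 the gap was small, at -0.53 for VIM against -0.42 for ACTA2 and -0.40 for CNN3. The VIM level was below that of PC3-EMT14 by 1.44-fold with OVOL1 and 3.41-fold with OVOL2, and by 6.36-fold in PC3-Epi. ACTA2 and TPM2 were also below PC3-EMT14 in all 3 lines. Among the contractile genes only ACTA2, at about 1 FPKM, was called lower in any comparison with PC3-EMT14. TAGLN, MYL9 and TPM1 were called higher in the epithelial line than in the mesenchymal line.

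**Figure D1:**
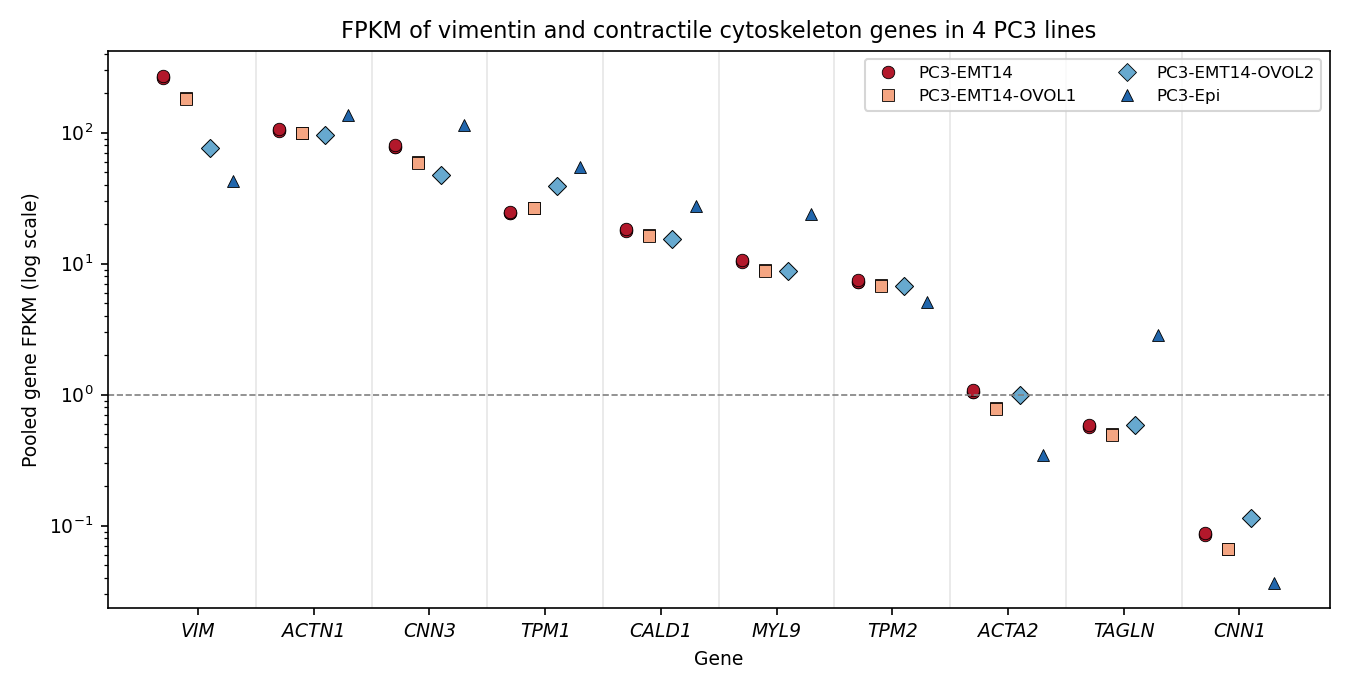
Pooled gene FPKM on a log axis for the 10 members, ordered from left to right by their level in PC3-EMT14. Symbols stand for the 4 lines, a line that occurs in several tables has 1 symbol per table, and the dashed line marks 1 FPKM. VIM runs from 271 FPKM in PC3-EMT14 down to 42.5 FPKM in PC3-Epi, whereas ACTN1, CNN3, TPM1, CALD1, MYL9 and TAGLN have their highest symbol in PC3-Epi.

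VIM (XLOC_002266) lies on the plus strand of hg19 at chr10:17270258-17279592. In each table the PC3-EMT14 level is given first: VIM had 265 against 183 FPKM with OVOL1, 262 against 76.9 FPKM with OVOL2 and 271 against 42.5 FPKM in PC3-Epi. The mesenchymal line was thus highest, followed by the OVOL1 line, the OVOL2 line and PC3-Epi. The log2 ratios to PC3-EMT14 were -0.53 with OVOL1 and -1.77 with OVOL2, and -2.67 for PC3-Epi. Of all genes of at least 1 FPKM, those with a lower ratio than VIM made up 4.62% with OVOL1, 0.712% with OVOL2 and 1.81% for PC3-Epi. Set directly against each other, the OVOL2 line had 76.9 FPKM and the OVOL1 line 181 FPKM, which is 2.36-fold lower with OVOL2 and a ratio below that of all but 0.545% of genes. The OVOL lines differ in the added factor, in its level and in the lentiviral construct, and these cannot be told apart. The lowest VIM level, in PC3-Epi, was still above the MYL9 and TPM2 levels of every line.

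Epithelial and mesenchymal markers are given beside these values, and their part in the VIM differences was not tested. EPCAM, an epithelial adhesion protein, had 23.0 against 87.6 FPKM with OVOL1, 22.7 against 151 FPKM with OVOL2 and 23.4 against 224 FPKM in PC3-Epi. ZEB1, a repressor of epithelial genes, had 7.43 against 4.25 FPKM with OVOL1, 7.36 against 1.77 FPKM with OVOL2 and 7.59 against 0.130 FPKM in PC3-Epi. Both markers ordered the 4 lines as VIM did, EPCAM in reverse, and so did CDH1, KRT8 and KRT18, epithelial genes that ran in reverse like EPCAM. The other 3 of the 8 markers did not follow that order. KRT19, an epithelial keratin, was higher with OVOL2 at 649 against 862 FPKM and in PC3-Epi at 671 against 742 FPKM, but lower with OVOL1 at 656 against 608 FPKM. CDH2, the gene of N-cadherin, had 17.6 against 13.3 FPKM with OVOL1, 17.4 against 10.1 FPKM with OVOL2 and 18.0 against 11.3 FPKM in PC3-Epi, so its lowest level was that of the OVOL2 line. FN1, the gene of fibronectin, had 36.8 FPKM against 33.8 FPKM in PC3-Epi but 18.4 FPKM with OVOL1 and 16.5 FPKM with OVOL2.

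The other members were counted against the background of all genes. With OVOL1, 0 of the 8 members of at least 1 FPKM were called lower and 0 higher, where 1.54% of 12197 genes were called lower and 2.43% higher. With OVOL2, VIM alone of 8 members was called lower and 0 were called higher, where the background was 2.93% of 12307 genes lower and 4.42% higher. In PC3-Epi, 2 of 9 members (VIM and ACTA2) were called lower and 3 (TAGLN, MYL9 and TPM1) higher, where 8.34% of 12441 genes were called lower and 7.37% higher. Between the OVOL lines, VIM alone of 7 members was called lower with OVOL2 and 0 members higher, where 1.17% of 12188 genes were called lower and 1.9% higher.

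Against PC3-EMT14, the median log2 ratio over the 10 members was -0.21 with OVOL1 and -0.09 with OVOL2, and for PC3-Epi it was 0.43. Members of at least 1 FPKM in the higher line numbered 8, 8 and 9, and their medians were -0.18 and -0.15 with the OVOLs and 0.51 for PC3-Epi. Over all genes of at least 1 FPKM the median lay at 0.00 and -0.04 with the OVOLs and at -0.01 for PC3-Epi. In sign, 9 of 10 members had a ratio below 0 with OVOL1 and 7 of 10 with OVOL2, but 4 of 10 in PC3-Epi. The members' median therefore lay on the side opposite to VIM in PC3-Epi.

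**Figure D2:**
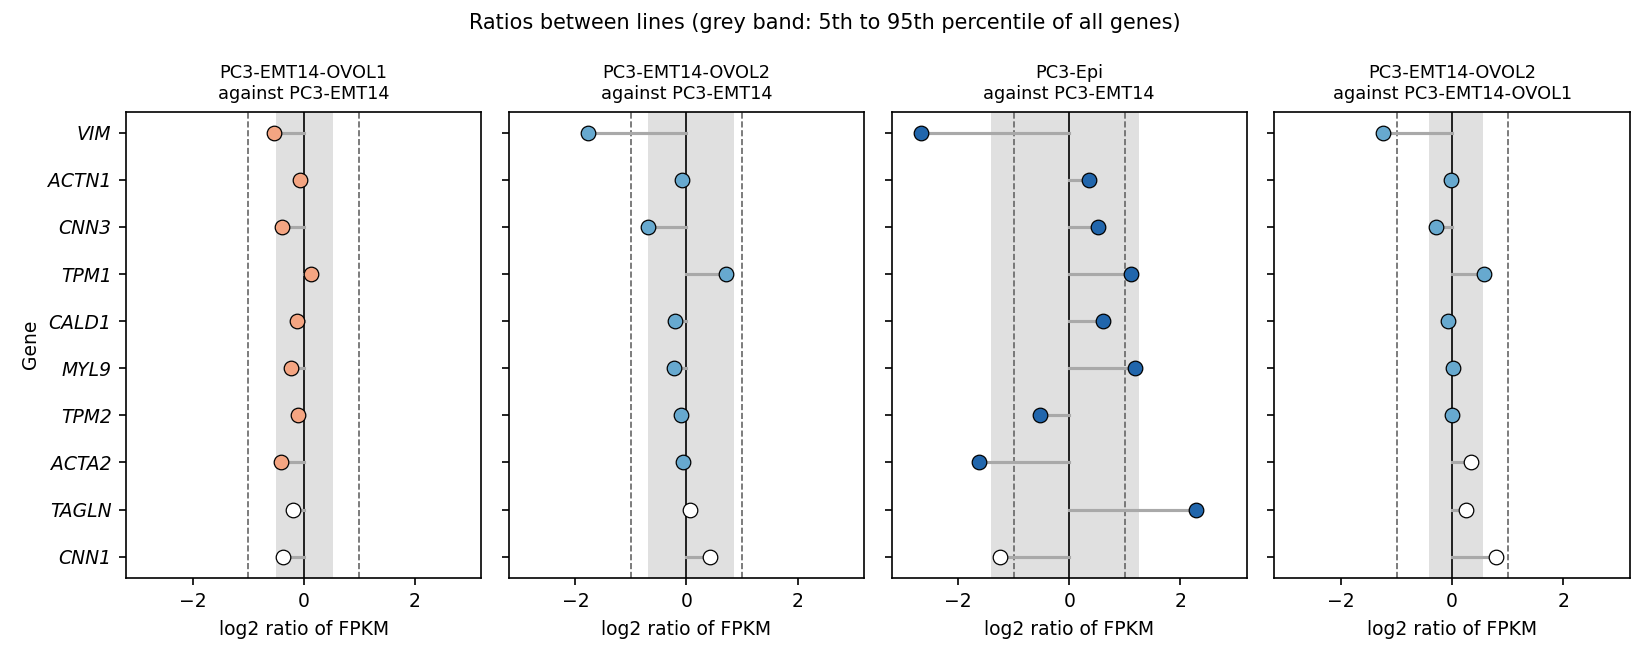
Log2 ratios of pooled FPKM for the 10 members in the 4 comparisons, with the first-named line over the second. The grey band spans the 5th to 95th percentile of all genes of at least 1 FPKM, dashed lines mark 2-fold, and open circles are members below 1 FPKM in both lines. VIM lies left of the band in every panel, CNN3 just left of it with OVOL2 at -0.70, and ACTA2 in PC3-Epi at -1.63. To its right lie TAGLN in PC3-Epi at 2.29 and, between the OVOL lines, TPM1 at 0.57 and the open circle of CNN1 at 0.80.

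TAGLN and ACTA2, classical markers of smooth muscle, were both near 1 FPKM and moved in opposite directions between PC3-Epi and PC3-EMT14. TAGLN (XLOC_003655, chr11:117070040-117075508, plus strand) encodes transgelin, an actin-binding protein also called SM22. It had 2.86 FPKM in PC3-Epi against 0.585 FPKM in PC3-EMT14, a 4.89-fold higher level and a log2 ratio of 2.29 that lay above 97.6% of genes. With OVOL1 it had 0.572 against 0.499 FPKM and with OVOL2 0.566 against 0.588 FPKM, so PC3-EMT14 and both OVOL lines stayed below 1 FPKM and TAGLN passed the minimum by its PC3-Epi level only. The listed TAGLN locus overlaps the protein-coding gene PCSK7 on the other strand. Whether reads were shared between TAGLN and PCSK7 was not tested.

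ACTA2 (XLOC_002889, minus strand) encodes smooth muscle alpha-actin, the actin of myofibroblasts. It had 0.349 FPKM in PC3-Epi against 1.08 FPKM in PC3-EMT14, 3.10-fold lower, a log2 ratio below which lay 3.93% of genes. With OVOL1 it had 1.06 against 0.791 FPKM and with OVOL2 1.05 against 0.996 FPKM. ACTA2 passed the minimum of 1 FPKM by its PC3-EMT14 level only. Its listed locus, chr10:90694831-90775542, runs past the annotated gene and over STAMBPL1 and FAS on the other strand. FAS, a death receptor with the same listed locus, had 3.76 FPKM in PC3-Epi against 2.39 FPKM, a log2 ratio of 0.66. Its log2 ratios with OVOL1 and OVOL2 were 0.68 and 0.93, and no level is given here for STAMBPL1. Whether ACTA2 shared reads with either gene was not tested.

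MYL9 and TPM1 had the highest log2 ratios in PC3-Epi, 1.18 and 1.12, among the contractile members of at least 5 FPKM. MYL9 (XLOC_012963, chr20:35169897-35178226, plus strand), a regulatory light chain of non-muscle and smooth muscle myosin, had 24.0 FPKM in PC3-Epi against 10.6 FPKM in PC3-EMT14. This level was 2.26-fold higher in the epithelial line, and 94.5% of genes had a lower ratio. With OVOL1 it had 10.4 against 8.91 FPKM and with OVOL2 10.3 against 8.86 FPKM, so both OVOL lines lay slightly below PC3-EMT14 rather than towards PC3-Epi.

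TPM1 (XLOC_006863, chr15:63334838-63364113, plus strand) encodes a tropomyosin, a coiled coil that stabilises actin filaments. It was the member whose order across lines ran against VIM. It had 24.4 against 26.8 FPKM with OVOL1, 24.2 against 39.4 FPKM with OVOL2 and 25.0 against 54.3 FPKM in PC3-Epi. The fold to PC3-EMT14 was 1.63 with OVOL2 and 2.17 in PC3-Epi, with 93.6% and 94.1% of genes at a lower ratio. Between the OVOL lines TPM1 had 39.4 FPKM with OVOL2 and 26.5 FPKM with OVOL1, a log2 ratio of 0.57. The authors' program marked the TPM1 entry as failed in the table of PC3-Epi, and its 2 values there are to be read with that mark.

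TPM2 (XLOC_021714, chr9:35681990-35690053, minus strand), the second tropomyosin gene, did not share this pattern. It had 7.29 against 6.83 FPKM with OVOL1, 7.21 against 6.77 FPKM with OVOL2 and 7.45 against 5.14 FPKM in PC3-Epi, a log2 ratio of -0.54 in the last. All 3 ratios were below 0, and none was 2-fold.

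The calponins, which bind actin and slow the myosin motor, differed by level. CNN3 (XLOC_001598, chr1:95362507-95392735, minus strand), the form made outside muscle, had 78.3 against 59.4 FPKM with OVOL1 and 77.5 against 47.9 FPKM with OVOL2. In PC3-Epi it had 114 FPKM against 80.0 FPKM in PC3-EMT14. The OVOL lines thus lay below PC3-EMT14, by 1.32-fold and 1.62-fold, with 7.80% and 4.92% of genes at a lower ratio, and PC3-Epi lay above it by 1.42-fold. CNN1 (XLOC_010057, chr19:11649579-11661138, plus strand), the smooth muscle form, was between 0.0368 and 0.115 FPKM in all 4 lines. At this level it could not be called, although its ratios enter the medians, signs and distances given for the members.

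CALD1 (XLOC_019775, chr7:134464164-134655480, plus strand) encodes caldesmon, which blocks myosin on actin until calcium or phosphorylation releases it. It had 17.9 against 16.4 FPKM with OVOL1, 17.8 against 15.5 FPKM with OVOL2 and 18.3 against 27.7 FPKM in PC3-Epi. ACTN1 (XLOC_006509, chr14:69340840-69446083, minus strand) encodes an alpha-actinin that cross-links actin filaments at adhesions. It had 104 against 99.7 FPKM with OVOL1, 103 against 96.7 FPKM with OVOL2 and 106 against 136 FPKM in PC3-Epi. Both genes followed CNN3 and MYL9 in sign: slightly below PC3-EMT14 in the OVOL lines and above it in PC3-Epi, by 1.51-fold for CALD1 and 1.28-fold for ACTN1.

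The signs in PC3-Epi and in the OVOL lines therefore went apart for 4 of the 8 members that reached 1 FPKM in every comparison with PC3-EMT14. CNN3, MYL9, CALD1 and ACTN1 were below PC3-EMT14 in both OVOL lines and above it in PC3-Epi. VIM, ACTA2 and TPM2 were below it in all 3, and TPM1 was above it in all 3. TAGLN, which reached 1 FPKM in PC3-Epi only, lay at a log2 ratio of -0.20 in the OVOL1 line and 0.05 in the OVOL2 line, against 2.29 in PC3-Epi. Most of these differences were under 2-fold, and their size against the replicate spread was not assessed.

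The isoform tables estimate how the transcripts of a gene share its FPKM. The 10 members have 26 isoforms, of which 14 reached 1 FPKM in a line, and VIM, CNN1 and CNN3 have 1 isoform each. The authors' program marked the VIM isoform as not tested with OVOL1 and between the OVOL lines, and the CNN1 isoform in every table. Isoforms carry only the locus of their gene, so the exons behind a share were not analysed here. Isoforms that reached 1 FPKM in a line and whose share moved by 10 percentage points or more against PC3-EMT14 numbered 2 of 14 with OVOL1, 0 with OVOL2 and 2 for PC3-Epi. Over the isoforms of all genes that reached 1 FPKM in a line, the same rule took 5.28% with OVOL1, 8.28% with OVOL2 and 9.73% for PC3-Epi, so counts this small are not read as particular to the members.

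With OVOL1 the change lay in MYL9. TCONS_00020947 held 77.4% of MYL9 in PC3-EMT14 and 65.0% in PC3-EMT14-OVOL1, and TCONS_00020948 held 22.6% and 35.0%. In FPKM the first isoform went from 8.05 to 5.79 and the second from 2.36 to 3.12, so the small difference of the whole gene was the sum of 2 isoforms that differed in opposite directions. TCONS_00020947 held 71.4% with OVOL2 and 76.0% in PC3-Epi, and the higher MYL9 level of PC3-Epi was carried by both isoforms.

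In PC3-Epi the shares of TAGLN and CALD1 moved. TCONS_00006077 held 42.6% of TAGLN in PC3-EMT14 and 90.6% in PC3-Epi, with 0.249 and 2.59 FPKM, while the other isoform, TCONS_00006076, had 0.335 and 0.268 FPKM. The higher TAGLN level of PC3-Epi was thus that of 1 isoform. For CALD1, the main isoform TCONS_00032242 held 93.6% in PC3-EMT14 and 78.0% in PC3-Epi although its FPKM was higher there, 21.7 against 17.1. The remainder went to minor isoforms, with TCONS_00032238 at 2.93 FPKM in PC3-Epi against 0.445 FPKM. TPM1 kept its main isoform, TCONS_00011200, at 79.1% in PC3-EMT14, at 76.5% and 82.1% with OVOL1 and OVOL2, and at 82.3% in PC3-Epi. The authors' program marked all 7 TPM1 isoforms as failed in the table of PC3-Epi and TCONS_00011200 as not tested in both OVOL tables, and the shares are to be read with those marks.

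**Figure D3:**
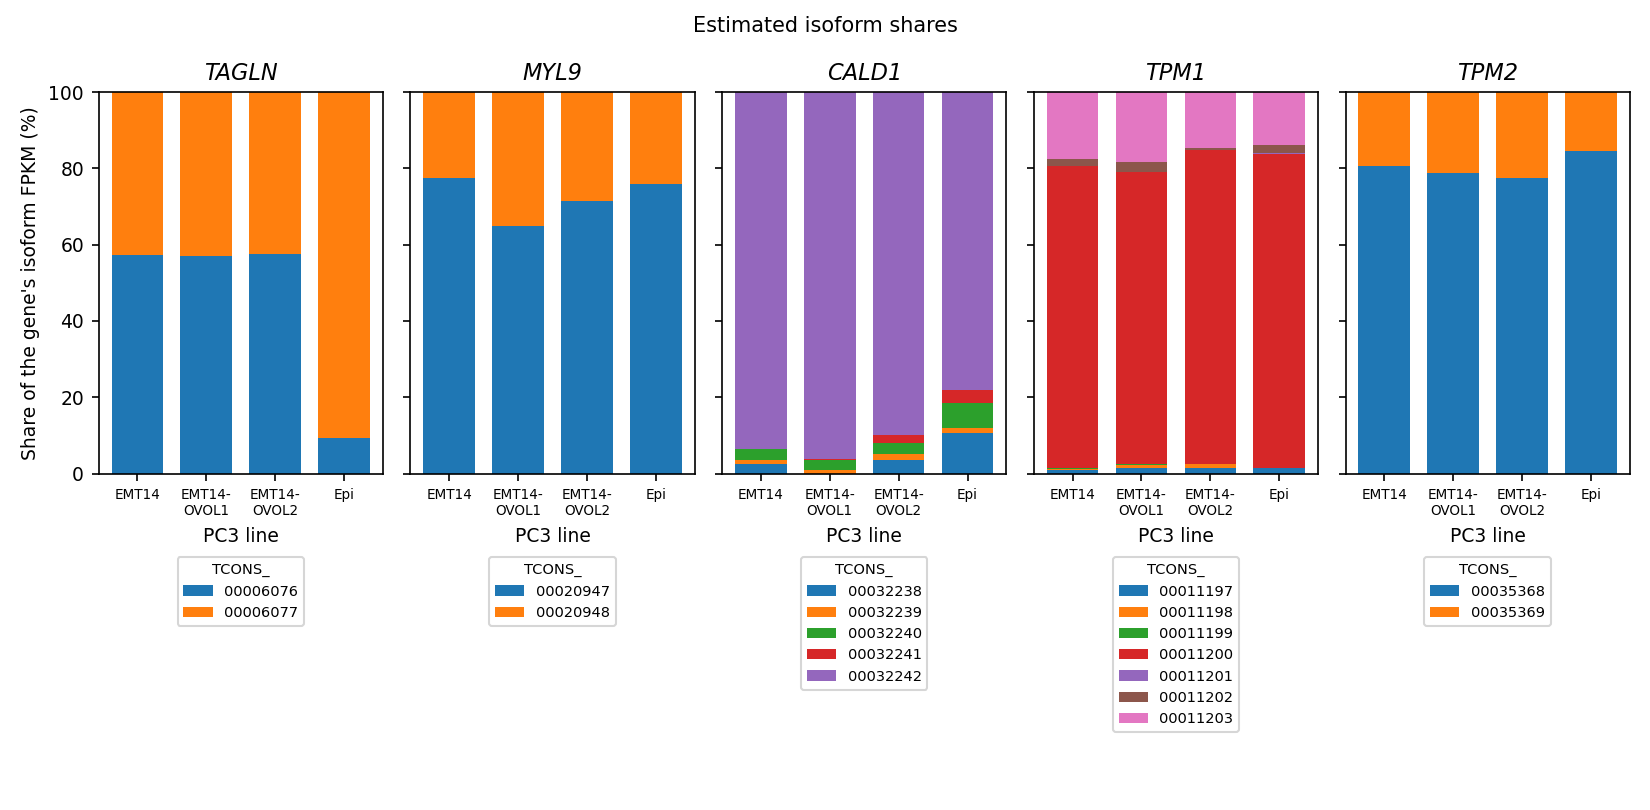
Stacked bars of the share of each isoform in the summed isoform FPKM of its gene, in percent from 0 to 100, for the 5 members named at the top in the 4 lines. Colours stand for isoforms as listed under each panel by the digits of their TCONS name. The orange isoform of TAGLN fills 90.6% of the bar in PC3-Epi against 42.6% in PC3-EMT14, the lower blue part of MYL9 drops to 65.0% with OVOL1, and the main CALD1 isoform drops to 78.0% in PC3-Epi.

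A list of 64 further genes of actin, myosin, adhesion and non-keratin filaments was read beside the members, and 63 of them have an entry in the tables. With OVOL1, 1 of 50 of at least 1 FPKM was called lower and 0 higher, beside 1.54% and 2.43% of all genes. With OVOL2, 1 of 51 was called lower and 2 higher, beside 2.93% and 4.42%. In PC3-Epi 3 of 52 were called lower and 1 higher, beside 8.34% and 7.37%. Between the OVOL lines 0 of 51 were called lower and 1 higher with OVOL2, beside 1.17% and 1.9%. With counts this small, the list's shares are not read as different from those of all genes. The median log2 ratio of the list was -0.10 and 0.00 with OVOL1 and OVOL2, and -0.13 for PC3-Epi.

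TAGLN3, a neuronal relative of TAGLN, was the one gene of this list called lower, at least 2-fold, in all 3 lines, and its levels had the same order as those of VIM. It had 45.8 against 19.6 FPKM with OVOL1, 45.3 against 11.2 FPKM with OVOL2 and 46.8 against 4.10 FPKM in PC3-Epi. The log2 ratios were -1.22, -2.02 and -3.51. TAGLN and TAGLN3, members of 1 family, thus lay on opposite sides of 0 in PC3-Epi. TAGLN2, the widely expressed form, had 538 FPKM in PC3-Epi against 472 FPKM.

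Among the actins, ACTB and ACTG1 encode the cytoplasmic forms of non-muscle cells, and neither was called in any comparison with PC3-EMT14. ACTB had 800 against 742 FPKM with OVOL1, 792 against 837 FPKM with OVOL2 and 817 against 997 FPKM in PC3-Epi. ACTG1 had log2 ratios of 0.02, 0.39 and 0.37 in the same order. ACTG2, the enteric smooth muscle actin, was higher in PC3-Epi, with 5.39 FPKM against 0.362 FPKM in PC3-EMT14, so the 2 smooth muscle actins ACTA2 and ACTG2 lay on opposite sides of 0. Actin coding sequences are close to one another, and reads that map to several actins were divided by the authors' program.

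FLNC and SMTN, both tied to contractile filaments, were lower in PC3-Epi. FLNC, the muscle filamin that cross-links actin, had 38.9 against 14.5 FPKM, and SMTN, the gene of smoothelin, had 44.8 against 14.8 FPKM. PRPH, the gene of the filament protein peripherin and a relative of vimentin, had 1.54 FPKM with OVOL2 against 0.633 FPKM. The myosin heavy chain MYH9 had log2 ratios of 0.03 and 0.36 with OVOL1 and OVOL2, and of -0.08 for PC3-Epi.

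In PC3-Epi the group medians of the log2 ratio, over genes of at least 1 FPKM, ran from -0.47 for the 4 intermediate filament genes other than keratins to 0.44 for the 4 actins. Between them lay 9 focal adhesion genes at -0.35, 6 paralogs of the members at -0.11, 7 myosin II genes at -0.08, 13 actin regulators and cross-linkers at 0.13 and 3 genes of SRF and its coactivators at 0.29. Groups this small are given as a description. SRF had 10.5 against 11.2 FPKM with OVOL1, 10.4 against 9.71 FPKM with OVOL2 and 10.7 against 17.9 FPKM in PC3-Epi. MYOCD, the coactivator of the smooth muscle programme, is listed at 0 in all 4 lines.

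**Figure D4:**
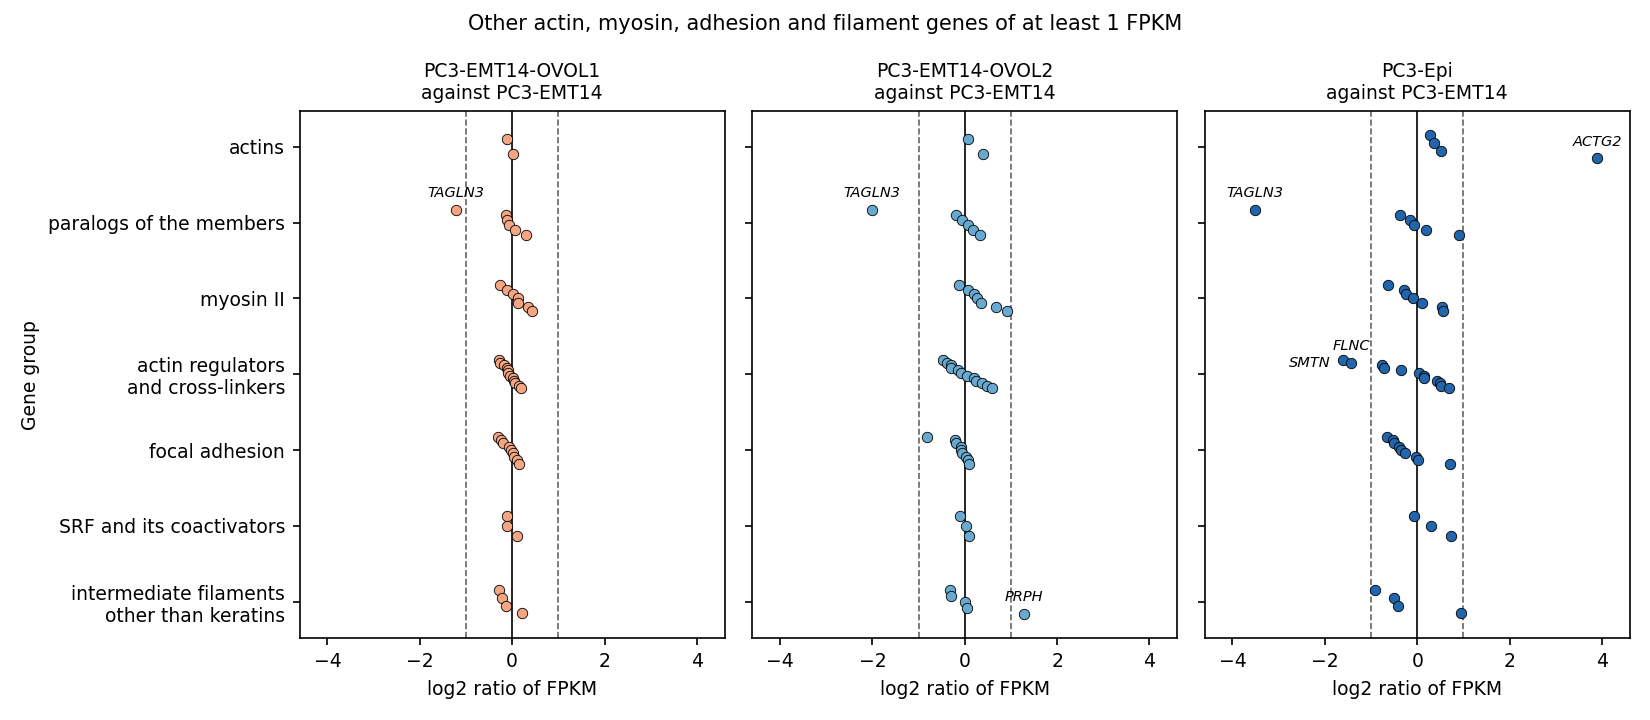
Log2 ratios of pooled FPKM against PC3-EMT14 for the other cytoskeletal genes of at least 1 FPKM, 1 point per gene, in 7 groups down the axis. Dashed lines mark 2-fold and the plotted genes beyond them are named. TAGLN3 lies at -1.22, -2.02 and -3.51 from left to right, and ACTG2 at 3.90 in PC3-Epi, while most genes lie between the dashed lines.

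The genes most like VIM were taken as those with the smallest Euclidean distance over the 3 log2 ratios against PC3-EMT14, among 6367 other genes of at least 10 FPKM in PC3-EMT14. The 5 nearest were HPGD at a distance of 0.281, LTBP1 at 0.490, TBXAS1 at 0.521, KRT75 at 0.572 and MRC2 at 0.600. HPGD, which degrades prostaglandins, had 144 against 87.9 FPKM with OVOL1, 143 against 42.7 FPKM with OVOL2 and 147 against 26.8 FPKM in PC3-Epi. TAGLN3 ranked 40 of these genes. Of the contractile members, CNN3 ranked 4041, ACTN1 4673, CALD1 5258, MYL9 6116 and TPM1 6264, at distances from 3.36 to 4.57. The other 4 lay under 10 FPKM and have no rank, and of these ACTA2, CNN1 and TPM2 were nearer to VIM than every ranked contractile member, at 1.99, 2.62 and 2.75, while TAGLN was at 5.30. The likeness rests on 3 ratios that share their PC3-EMT14 samples.

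The genes around VIM on chromosome 10 were read as well, a step chosen after the VIM values were seen. The 50 nearest genes of at least 1 FPKM, within 9.72 Mb, had a median log2 ratio of 0.02 and -0.04 with OVOL1 and OVOL2, and of 0.75 for PC3-Epi. For PC3-Epi 38 of the 50 were above 0, so VIM was lower in a stretch whose other genes were mostly higher. The stretch was uneven. Most of its genes below 0, such as KIAA1217 at -1.16 and NEBL at -0.83, lay at higher coordinates than VIM, where signs were mixed. VIM had a lower ratio than all 50 with OVOL2 and in PC3-Epi and than 49 of 50 with OVOL1. Around TAGLN the median in PC3-Epi was 0.32, and around the other 8 members it lay between -0.15 and 0.14.

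**Figure D5:**
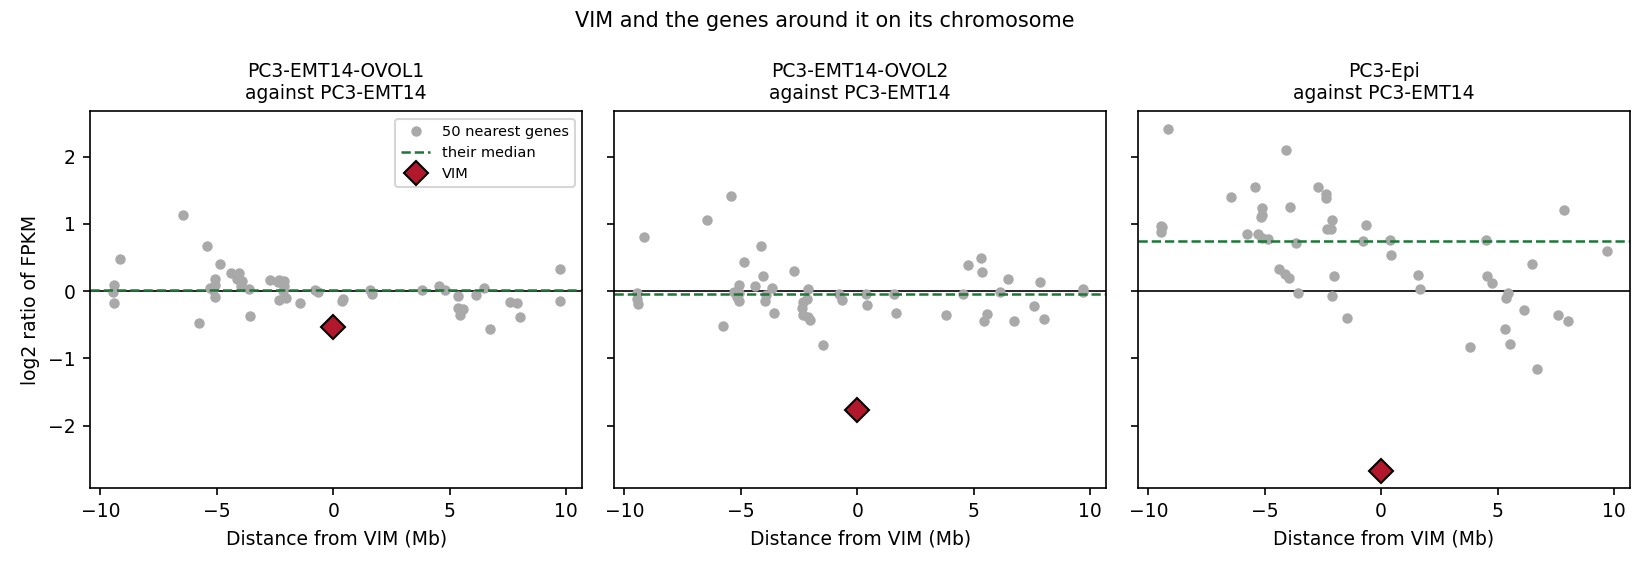
Log2 ratio of pooled FPKM against PC3-EMT14 for VIM (red diamond) and its 50 nearest genes of at least 1 FPKM (grey points), by distance from VIM in Mb on chromosome 10. The green dashed line is the median of the 50, at 0.02, -0.04 and 0.75 from left to right. VIM lies below all 50 with OVOL2 and in PC3-Epi.

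The promoters of the members were read from RefSeq on GRCh38.p14, from 250 bases before to 50 bases after each start. Of the 10 members, 8 matched, with 17 starts, and TAGLN and MYL9 did not. The CArG box was first searched in its strict form, CC, then 6 bases that are each A or T, then GG, which reads alike on both strands. This form was found in 1 of the 17, at ACTN1, against 1.29% of all 35116 promoters. With exactly 1 C or G among the 6 middle bases, a looser form chosen after the sequences were seen, it was found in 2 of the 17, 1 of the 2 starts of ACTA2 and 1 of CALD1, against 6.94% of all. The ACTA2 window held 2 such elements. The OVOL2 consensus of the study was found in 0 of 17 against 0.980% of all, and CACCTG on either strand, an element bound by ZEB1, in 0 of 17 against 20.6%. GGGCGG on either strand, the GC box, was chosen after the sequences were seen and was found in 10 of 17 against 45.0%. A match describes the letters of this window and no binding was measured. The 250 bases before the start are shown for VIM (chr10:17227991-17228240, plus strand) and TPM1 (chr15:63048239-63048488, plus strand), the 2 members whose order across the lines was opposite, 5′ to 3′ with GC boxes in capitals. The short sequences are the strict CArG box of ACTN1 and both looser elements of ACTA2, in capitals with 10 bases on each side, their first bases 171, 121 and 71 bases before the start.
VIM: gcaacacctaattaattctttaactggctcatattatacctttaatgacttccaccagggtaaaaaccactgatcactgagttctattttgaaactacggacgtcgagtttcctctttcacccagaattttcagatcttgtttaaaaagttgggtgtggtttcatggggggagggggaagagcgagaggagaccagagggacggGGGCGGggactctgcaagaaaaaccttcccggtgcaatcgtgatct
TPM1: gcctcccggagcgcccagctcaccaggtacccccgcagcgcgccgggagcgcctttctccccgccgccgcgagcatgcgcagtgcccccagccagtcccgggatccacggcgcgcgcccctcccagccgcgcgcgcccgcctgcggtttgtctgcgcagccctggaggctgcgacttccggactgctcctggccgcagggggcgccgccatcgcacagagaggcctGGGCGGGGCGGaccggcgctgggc
ACTN1 CArG box: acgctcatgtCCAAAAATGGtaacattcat
ACTA2 looser CArG element, far: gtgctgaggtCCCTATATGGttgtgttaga
ACTA2 looser CArG element, near: tgtctttgctCCTTGTTTGGgaagcaagtg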

How the data were processed

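RNA-seq was performed on 10 samples of 4 PC3 lines. The authors aligned paired-end reads with TopHat to the UCSC hg19 transcriptome and ran Cuffdiff on pairs of lines with scaling to the upper quartile of transcriptome-compatible hits, multi-read correction and bias correction. They deposited 8 tables, a gene and an isoform table for each of 4 pairs, and the FPKM values in them were pooled by the authors to 1 per line and table. The tables also hold the authors' fold changes, test statistics, p-values and q-values, which were not used. Columns with values per sample left unused numbered 0. Levels of 1 line in different tables differed by a constant factor, 0.979 for PC3-EMT14 between the tables of OVOL1 and PC3-Epi, so tables do not serve as replicates.

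Ratios were computed within a table, without a pseudocount, in Python 3.11.15 with numpy 2.4.6 and pandas 2.3.3, and plotted with matplotlib 3.10.9. The calling rule was run on simulated data with planted changes past its threshold. This checks the code and does not measure errors in these data. No test was fitted. Strandedness of the libraries is not given in the sources used here, and genes on opposite strands may share reads. Alternatives were a pseudocount and another scaling, minimum, fold, table or isoform sum. The members and lists were chosen with earlier results of these data known. Named were all members, isoforms of at least 1 FPKM whose share moved by 10 points, genes of the further list past 2-fold with ACTB, ACTG1 and MYH9, and the 5 genes most like VIM. A gene and a gene group of the further list are counted with it and not reported or plotted on their own. FAS, TAGLN2, SRF, MYOCD, the main TPM1 isoform and minor isoforms fall outside that rule and were chosen after their values were seen.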

Additional observations from a re-analysis of the deposited data

How the results depend on the processing

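Over 20 counts and medians, 219 alternative values were computed. Many of them took a line from another table, at a nearly constant factor, or summed the isoforms of a gene. Such settings could move a result only a little. Of the 219, 188 kept the reported value within 1.5 times for counts or within 0.1 for medians, and 31 moved beyond these limits. Reversals of direction were not scored. Between the OVOL lines the members' median of 0.005 did change sign within the limit. It was -0.010 or -0.011 with the OVOL1 level from the table of OVOL1 against PC3-EMT14. The alternatives for counts of higher genes, the setting without genes marked as failed or too abundant and the tolerance of 0.1 were chosen after seeing the data. With 1 FPKM added, the members' median with OVOL1 was -0.10 and 1 member was called lower in PC3-Epi, since ACTA2 dropped out. A minimum of 5 FPKM also left 1 lower there, and 2 instead of 3 higher, since TAGLN dropped out. At 4-fold, 0 members were called lower with OVOL2 and 0 between the OVOL lines, and in PC3-Epi 1 was called lower and 1 higher. At 1.5-fold, 2 were called lower and 1 higher with OVOL2. Without entries marked as failed, which removes TPM1, 2 members remained higher in PC3-Epi.

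For the further cytoskeletal genes, no minimum gave 4 lower with OVOL1, 2 lower and 5 higher with OVOL2, 8 lower and 2 higher in PC3-Epi, and 1 lower and 4 higher between the OVOL lines. At 1.5-fold the counts were 2 lower and 5 higher with OVOL2, 10 lower and 6 higher in PC3-Epi and 2 lower between the OVOL lines. At 4-fold they were 0 lower with OVOL1, 0 higher with OVOL2, 1 lower in PC3-Epi and 0 higher between the OVOL lines. With 1 FPKM added, and likewise with a minimum of 5 FPKM, 1 was higher with OVOL2 and 0 between the OVOL lines. With PC3-EMT14 taken from the table of PC3-Epi, 1 was higher with OVOL2, by either table of the OVOL2 line. Most of these settings change the threshold itself, and the cause of the other shifts was not tested.

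No paired analysis was possible because the deposited values are pooled by line and carry no replicate numbers, and leaving out single samples could not be done for the same reason. Depth is unknown, so levels near or below 1 FPKM, those of TAGLN, ACTA2 and CNN1, have the least known precision.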
